A study of Homo sapiens with 4 samples.

Results

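The genes of the proteasome, the protease that destroys proteins tagged with ubiquitin, were read on 4 arrays as 81 probe sets of 42 genes, out of 54675 probe sets and 19775 genes in all. The members are every probe set whose single gene symbol in the array's annotation is PSMA, PSMB, PSMC, PSMD, PSME, PSMF or PSMG followed by a number, with no threshold on a measured value. PSMA6 and PSME2 have only probe sets that carry several symbols and fall outside the rule, and PSMB11, PSMC5, PSMD7 and PSMD13 are not analysed here. RNA came from 2 established human lymphoma lines of skin-homing T cells, MyLa and HH. Each was cultured with IL-32γ (an isoform of the cytokine interleukin-32) at 5 ng/ml, or without it as the control. All 4 cultures were kept for 40 hours in 0.1% serum, and each has 1 array. MyLa is labelled a mycosis fungoides line and HH a cutaneous T cell lymphoma line; each is 1 line and stands for no other tumour.

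The proteasome has a barrel-shaped core of stacked rings and a regulatory cap. The outer rings are made of alpha subunits (PSMA genes), which gate the entry, and the inner rings of beta subunits (PSMB genes), of which PSMB5, PSMB6 and PSMB7 carry the cutting sites. Interferon gamma induces PSMB8, PSMB9 and PSMB10, which take the places of PSMB5, PSMB6 and PSMB7 in the immunoproteasome and change which peptides are made for display on MHC class I; lymphocytes carry much of this form without induction. The cap unfolds its substrates with ATPases (PSMC genes) and binds and removes ubiquitin through other subunits (PSMD genes), while the PSME genes encode other activators and the PSMG genes chaperones of core assembly.

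Values are log2 expression values after GCRMA, a method that corrects background by probe sequence, and 5 was taken as the floor of measurement, reached by 42.9% to 43.3% of probe sets per array. Of the 81 member probe sets, 72 read 5 or more on all 4 arrays, 6 were below 5 on all 4, and 3 were mixed. The brightest probe set stands for each gene. By that choice 41 of the 42 genes read 5 or more on every array and all 42 were tested. PSMA8, the other one, passed through HH alone, so the filter fixed the direction of its difference. T cell markers read 5 or more on both arrays of a line for 4 of 12 genes in MyLa and 7 of 12 in HH, with CD3E, CD4 and CD5 below 5 in MyLa. B cell and endothelial markers were below 5 in both lines (0 of 5 and 0 of 6 measured). Of 4 myeloid markers ITGAM read 8.73 and 9.00 in MyLa (IL-32γ, control), against 2.13 and 2.13 in HH, with CD14, CSF1R and LYZ below 5 in both lines, and of 4 keratinocyte markers KRT10 read 11.4 to 11.7 in both lines, with KRT1, KRT5 and KRT14 below 5. Of 6 fibroblast markers, COL1A1 and COL3A1 read 5 or more on both MyLa arrays while COL1A2, DCN, LUM and PDGFRA were below 5; the 6 values summed to 32.8 and 34.1 in MyLa (IL-32γ, control), against 16.88 and 15.96 in HH, and their part in the differences between the lines was not tested. In such bulk RNA, fewer cells with a transcript and less of it per cell cannot be told apart.

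Most proteasome genes read alike in MyLa and HH, and a few stood apart. PSMA8, an alpha subunit that in mice serves the proteasome of germ cells in meiosis, was high in HH and below the floor in MyLa. PSMB10, an inducible catalytic subunit, was 4.80-fold lower in MyLa, and PSMD12, a cap subunit, was 2.23-fold higher there. Over the 42 genes the median difference was 0.07 (log2, MyLa minus HH), beside 0.03 over all 11010 genes tested. Of the members, 29 (69.0%) differed by less than 0.5, beside 39.7% of all genes. All genes tested were not matched to the members in level, and they include genes that reached 5 in 1 line only. Called genes, with a limma adjusted p under 0.05 and 2-fold or more, were 1 of 42 (2.38%) higher in MyLa, where the share of all genes was 18.7%, and 2 of 42 (4.76%) lower, where it was 16.8%. At the same adjusted p and any size 8 were higher in MyLa, beside 29.0% of all genes, and 7 lower, beside 27.0%. Here the 2 arrays of a line serve as its replicates (n = 2 per line), so their spread also holds whatever IL-32γ did and may otherwise be technical. The plot of levels shows each gene's 4 values by role.

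**Figure D1:**
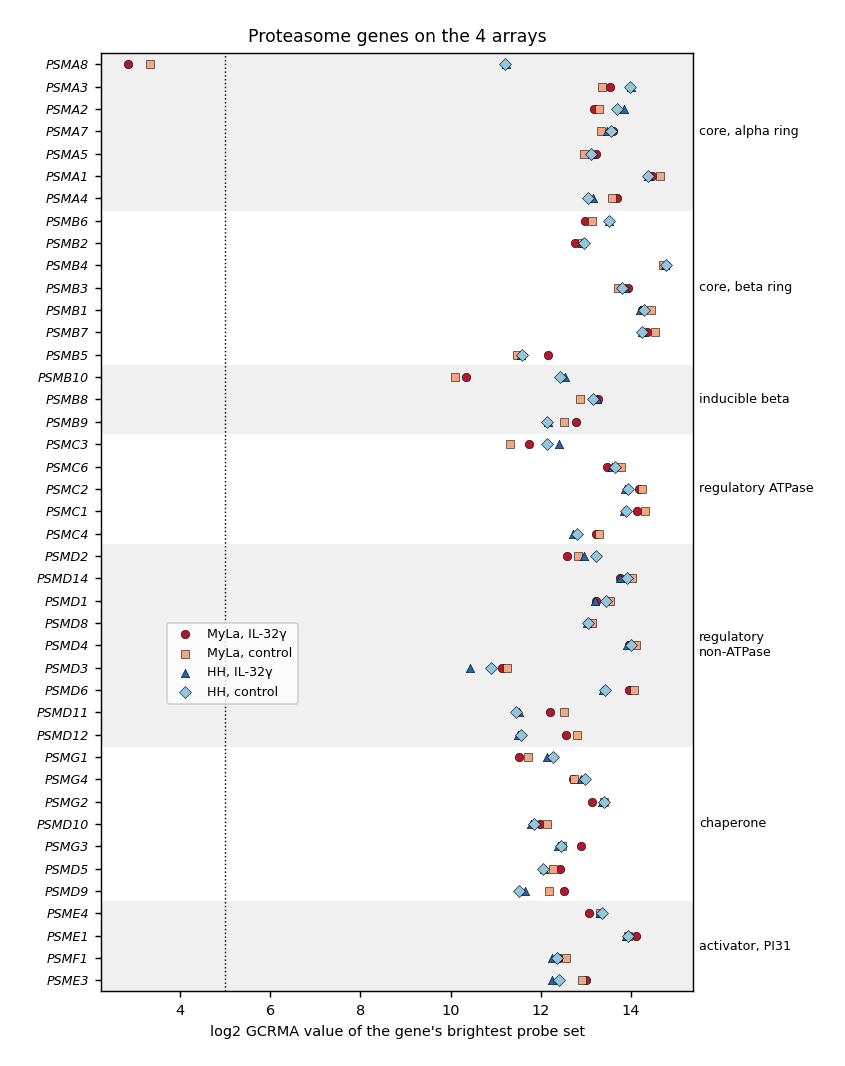
Each row is a proteasome gene, grouped by role, and the x axis gives the log2 GCRMA value of its brightest probe set on the 4 arrays; the dotted line marks the floor of 5. PSMA8 lies below 5 on both MyLa arrays and at 11.2 on both HH arrays, and PSMB10 is the other gene whose lines lie over 2 units apart.

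The sequences before the starts of 4 genes are shown because these are the 3 members that differed by 2-fold or more between the lines, with PSMB9, whose gene lies head to head with the peptide transporter gene TAP1. They are the 250 bases before the RefSeq start (GRCh38.p14), read along the gene's strand: PSMA8 at chr18:26133619-26133868 (plus strand), PSMB10 at chr16:67936851-67937100 (minus), PSMD12 at chr17:67366578-67366827 (minus) and PSMB9 at chr6:32853942-32854191 (plus). Capitals mark matches, on either strand, to CCAAT (bound by NF-Y), TGACNNNGC (the core of the element bound by NFE2L1 and NFE2L2), GAAA and GAAA with 2 bases of any kind between (the interferon-stimulated element) and TTCNNNGAA (the element bound by STAT factors).
PSMA8: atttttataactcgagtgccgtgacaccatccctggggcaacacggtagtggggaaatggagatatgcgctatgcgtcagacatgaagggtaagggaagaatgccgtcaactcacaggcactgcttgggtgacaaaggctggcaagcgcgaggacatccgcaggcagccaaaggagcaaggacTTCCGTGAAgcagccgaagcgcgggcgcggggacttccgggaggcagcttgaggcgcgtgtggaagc
PSMB10: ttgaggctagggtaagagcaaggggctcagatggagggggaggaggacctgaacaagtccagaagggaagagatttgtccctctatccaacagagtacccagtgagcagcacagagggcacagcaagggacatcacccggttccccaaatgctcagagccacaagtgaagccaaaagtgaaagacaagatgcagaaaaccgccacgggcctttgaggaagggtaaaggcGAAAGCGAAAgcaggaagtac
PSMD12: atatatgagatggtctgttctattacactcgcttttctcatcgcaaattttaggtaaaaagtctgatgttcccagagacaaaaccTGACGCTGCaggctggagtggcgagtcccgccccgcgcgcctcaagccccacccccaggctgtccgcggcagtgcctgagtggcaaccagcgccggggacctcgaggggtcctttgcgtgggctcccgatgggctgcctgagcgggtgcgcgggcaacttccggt
PSMB9: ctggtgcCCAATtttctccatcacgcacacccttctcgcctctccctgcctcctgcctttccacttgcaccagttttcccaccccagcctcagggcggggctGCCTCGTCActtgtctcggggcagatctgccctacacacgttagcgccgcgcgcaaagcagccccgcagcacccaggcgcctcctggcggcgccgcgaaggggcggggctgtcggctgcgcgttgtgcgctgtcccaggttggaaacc

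The PSMB10 window held 1 such GAAA pair, from -21 to -12 before the start, and had 5 CpG, against a median of 19 in the 43 member windows and 11 in all 35116 windows. PSMA8 had 18 CpG and 1 TTCNNNGAA, PSMD12 had 19 CpG and 1 TGACNNNGC, and PSMB9 had 21 CpG with 1 CCAAT and 1 TGACNNNGC. The table held windows for 36 of the 42 genes, 43 windows in all. CCAAT was found in 37.2% of these and 32.0% of all windows, TGACNNNGC in 25.6% and 10.9%, the GAAA pair in 9.30% and 3.02%, and TTCNNNGAA in 16.3% and 6.57%. A match describes these letters and is not evidence of binding.

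PSMA8 is read by 1 probe set, 240091_at, which gave 2.85 with IL-32γ and 3.33 without in MyLa, against 11.22 and 11.19 in HH. The lines do not overlap, and both HH arrays agree to within 0.03. With MyLa raised to 5 the difference was -6.21 (SE 0.09, limma adjusted p = 4.798e-05), so PSMA8 was at least 73.9-fold lower in MyLa. Its close paralog PSMA7, the subunit PSMA8 replaces, read 13.60 and 13.33 in MyLa (IL-32γ, control), against 13.47 and 13.57 in HH, with the lines overlapping (-0.05, SE 0.14, limma adjusted p = 0.756). Since both MyLa values were set to the floor and the gene was tested through its HH values alone, its adjusted p is no measure of stability.

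The other alpha subunits differed little. PSMA4 was higher in MyLa, at 13.69 and 13.58 (IL-32γ, control), against 13.16 and 13.04 in HH (0.54, SE 0.11, limma adjusted p = 0.0196). PSMA2 was lower, at 13.17 and 13.30, against 13.83 and 13.69 in HH (-0.53, SE 0.11, limma adjusted p = 0.0241). Its other probe set went the same way (-0.30) but missed the threshold (limma adjusted p = 0.227), as PSMA2 did with probe sets averaged (-0.41, limma adjusted p = 0.0548). PSMA4 and PSMA2 encode structural parts of the gate ring, and in each the lines do not overlap. PSMA3 was lower as well (-0.55, SE 0.11, limma adjusted p = 0.0200), with 13.53 and 13.36 in MyLa, against 14.00 and 13.97 in HH, but its 3 probe sets did not agree. The second gave -0.76, while the third, 237300_at, read 7.30 and 6.65 in MyLa and was below 5 in HH. PSMA1 (0.18) and PSMA5 (-0.02) did not pass the threshold, though the dimmer probe set of PSMA5 gave 0.47.

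Of the 7 constitutive beta subunits 1 was lower in MyLa at an adjusted p under 0.05, beside 27.0% of all genes, and 0 were higher, beside 29.0%. PSMB6, which cuts after acidic residues, was lower in MyLa, at 12.98 and 13.14 (IL-32γ, control), against 13.51 and 13.52 in HH (-0.45, SE 0.11, limma adjusted p = 0.0300). PSMB7, the trypsin-like site, read 14.36 and 14.52 in MyLa, against 14.23 and 14.25 in HH (0.20, limma adjusted p = 0.195), and its dim second probe set went the other way (-0.39). PSMB5, the chymotrypsin-like site and the main target of bortezomib, read 12.17 and 11.47 in MyLa, against 11.56 and 11.58 in HH (0.25, SE 0.27, limma adjusted p = 0.470). Its 2 MyLa values lie on either side of the HH values, so the line difference depends on the array: without the MyLa control array it was 0.60 (limma adjusted p = 0.0244) and without the MyLa IL-32γ array -0.10 (limma adjusted p = 0.151). The subunits without a cutting site, PSMB1, PSMB2, PSMB3 and PSMB4, lay between -0.09 and 0.10.

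The inducible subunits did not go one way. PSMB10, the inducible trypsin-like site, read 10.33 and 10.09 in MyLa (IL-32γ, control), against 12.53 and 12.41 in HH. The lines lie far apart relative to their spread (-2.26, SE 0.13, limma adjusted p = 0.000903). PSMB9, the inducible partner of PSMB6, read 12.77 and 12.51 in MyLa, against 12.15 and 12.15 in HH, and was higher in MyLa by 0.49 (SE 0.13, limma adjusted p = 0.0415). PSMB8, the inducible chymotrypsin-like site, read 13.26 and 12.87 in MyLa, against 13.23 and 13.15 in HH, with the lines overlapping (-0.13, SE 0.17, limma adjusted p = 0.558). Each of these genes has 1 probe set. Set against the constitutive subunit it replaces, PSMB10 stood lower in MyLa relative to PSMB7 (-2.46, and -2.73 to -2.19 over pairs of arrays), while PSMB9 stood 0.95 higher relative to PSMB6 (0.73 to 1.17) and PSMB8 at -0.38 relative to PSMB5 (-0.58 to -0.18). These are differences between lines and not ratios of subunits in a cell, since levels of different probe sets cannot be set side by side. PSMB10 missed the threshold without the HH IL-32γ array (-2.20, adjusted p = 0.0509), and PSMB9 without either HH array (adjusted p = 0.215 and 0.214), with arrays centred on their medians (0.0503) or with no floor and no filter (0.129).

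**Figure D2:**
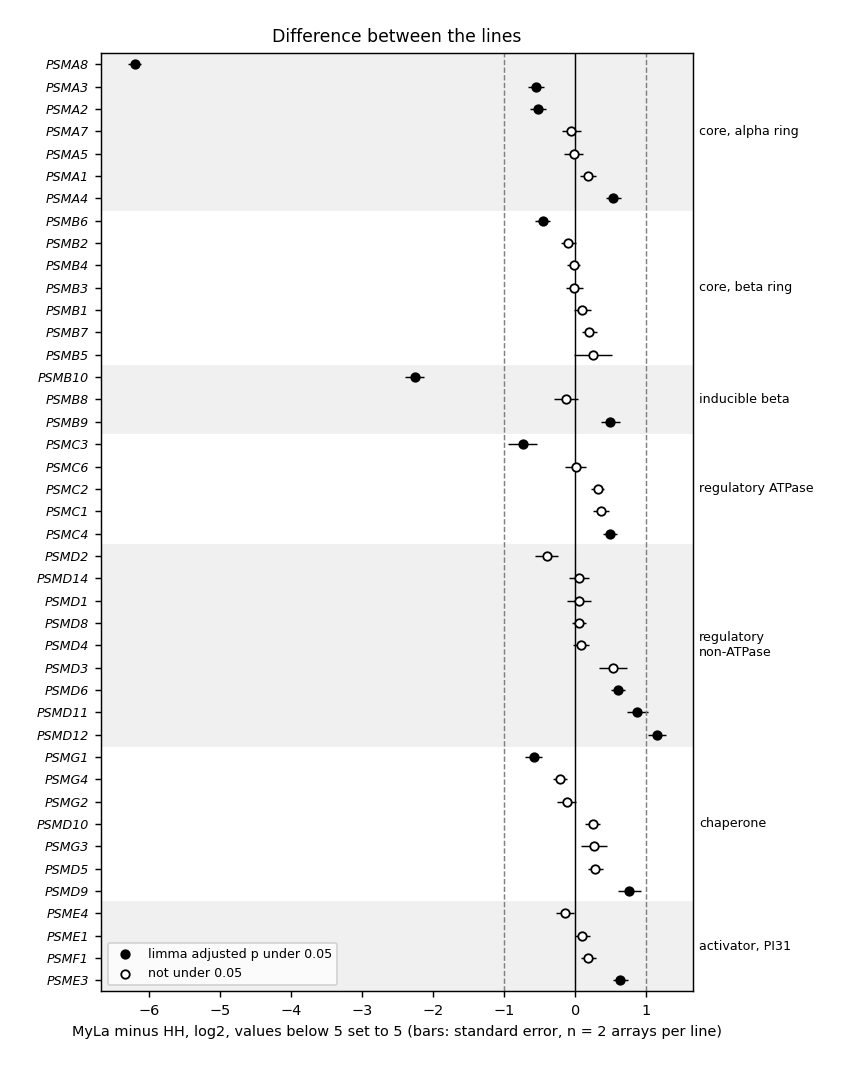
Each point is the MyLa minus HH difference of a proteasome gene (log2, values below 5 set to 5) with its standard error (n = 2 arrays per line), filled where the limma adjusted p was under 0.05; dashed lines mark 2-fold. PSMA8 (-6.21, a bound) and PSMB10 (-2.26) lie beyond the lower line and PSMD12 (1.16) beyond the upper one.

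In the cap, 3 of 9 non-ATPase subunits were higher in MyLa at an adjusted p under 0.05, near the 29.0% of all genes, and 0 were lower, beside 27.0%. Their median was 0.08, beside 0.03 over all genes, and PSMD1, PSMD4, PSMD8 and PSMD14 lay between 0.05 and 0.08. PSMD12 read 12.56 and 12.79 in MyLa (IL-32γ, control), against 11.49 and 11.55 in HH (1.16, SE 0.12, limma adjusted p = 0.00411). PSMD11 read 12.20 and 12.51, against 11.51 and 11.44 in HH (0.88, SE 0.15, limma adjusted p = 0.0127). These subunits are scaffold parts of the lid, and in both the lines do not overlap. The second probe set of PSMD12 gave 0.58, under 2-fold, and that of PSMD11 gave 1.07. PSMD6, also of the lid, was higher by 0.60 (SE 0.10, limma adjusted p = 0.0130), yet its second, dim probe set 1555884_at was lower in MyLa, at 5.74 and 6.08, against 6.81 and 6.64 in HH. PSMD2, a large scaffold of the base, had the lowest value (-0.40, limma adjusted p = 0.109), and PSMD14, the enzyme that removes ubiquitin chains, stood at 0.05. PSMD12 lost its call without the HH IL-32γ array (1.12, adjusted p = 0.0826) or the HH control array (1.19, adjusted p = 0.0780), and PSMD11 too went past 0.05 without either (adjusted p = 0.134 and 0.141).

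Of 5 ATPases PSMC4 was higher in MyLa (0.50, SE 0.10, limma adjusted p = 0.0193), with 13.22 and 13.28 (IL-32γ, control), against 12.71 and 12.80 in HH. PSMC3 was lower, with 11.74 and 11.32, against 12.41 and 12.13 in HH (-0.74, SE 0.21, limma adjusted p = 0.0467). In both the lines do not overlap, and both went past 0.05 when any of the 4 arrays was left out (adjusted p from 0.0532 to 0.0884 for PSMC4 and from 0.0904 to 0.279 for PSMC3). PSMC1 (0.36), PSMC2 (0.31) and PSMC6 (0.00) did not pass, and the dimmer probe sets of PSMC2 went the other way (-0.11 and -0.32). Among the chaperones PSMD9, which helps to build the base, was higher in MyLa, with 12.52 and 12.17, against 11.65 and 11.52 in HH (0.76, SE 0.16, limma adjusted p = 0.0237). PSMG1, a chaperone of the alpha ring, was lower, with 11.53 and 11.71, against 12.14 and 12.26 in HH (-0.58, SE 0.12, limma adjusted p = 0.0222). PSMG2, the partner with which PSMG1 forms a pair, stood at -0.12.

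Among activators PSME3, the nuclear activator, was higher in MyLa, with 12.99 and 12.92 (IL-32γ, control), against 12.24 and 12.40 in HH (0.64, SE 0.11, limma adjusted p = 0.0136). All 4 of its probe sets were higher in MyLa, by 0.46 to 1.05. PSME1, the interferon-inducible activator subunit, read 14.10 and 13.92 in MyLa, against 13.90 and 13.93 in HH (0.10, limma adjusted p = 0.476), with the lines overlapping. PSMF1, encoding the regulator PI31, stood at 0.19, and PSME4, the activator of large size that acts in the nucleus, at -0.15, though its 2 dimmer probe sets read -0.85 and -1.01. Without 1 array, which leaves 1 residual degree of freedom, some of the 15 genes at an adjusted p under 0.05 lost it. The loss was largest without either HH array: only PSMA8 kept it without the HH IL-32γ array. Without the HH control array only PSMA8 and PSMB10 did. PSMA2, PSMA4, PSMC3, PSMC4, PSME3 and PSMG1 lost it whichever array was left out, and PSMD9 lost it except without the MyLa control array. These losses are those of the 15 genes only, and other members passed when a MyLa array was left out. PSMA8 was set to the floor in MyLa and tested through HH alone. Its MyLa values thus had no spread, and its staying under the threshold is no measure of stability. The share of all genes tested at that threshold, a different measure, also fell with each array left out. It too fell most without either HH array, so such losses are not particular to the members.

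The promoter table placed 36 of the 42 genes, all but PSMA7, PSMB1, PSMB6, PSMB7, PSMD4 and PSMG3. By chromosome, PSME3, PSMD11 and PSMD12, higher in MyLa at an adjusted p under 0.05 (limma), lay on 17. The share of all genes there at that threshold was not counted. Of the 5 members placed on chromosome 17, PSMB3, PSMD3, PSME3, PSMD11 and PSMD12, the median difference was 0.64, beside 0.38 over 521 genes tested on that chromosome. PSMA4, the member on chromosome 15, stood at 0.54, beside 0.91 over 312 genes. On chromosome 14, with 5 members, the median was 0.10, beside 0.00 over 319 genes. Medians over all genes of the other chromosomes with members lay between -0.11 and 0.16, so 17 and 15 stand apart. The part of the chromosomes in the members' differences was not tested.

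With IL-32γ few proteasome genes moved by much in either line. In MyLa, 1 of 41 was higher by 1.5-fold or more (2.44%, beside 7.77% of 10497 genes) and 0 lower (beside 7.65%), and the median was -0.11, beside -0.07 over all genes. In HH, 0 of 42 were higher and 0 lower (beside 1.14% and 4.46% of 10307 genes), and the median was -0.03, beside -0.07. At a smaller size, 0.32 or more on the log2 scale, 5 members were higher in MyLa (beside 15.6%) and 0 lower (beside 21.5%), and in HH 0 were higher (beside 3.47%) and 1, PSMD3, lower (beside 16.2%). With 1 array per condition these differences have no test and no replicate check. Across both lines (n = 2 lines), limma with the line as a block called 0 of 42 genes and 0 of 11010 at an adjusted p of 0.05; at an unadjusted p under 0.05 there was 1 member, PSMC3, higher (2.38%, beside 1.54% of all genes) and 0 lower (beside 7.60%). On the same arrays the 5' ACTB control probe set was higher with IL-32γ by 1.69 in MyLa and 0.89 in HH. Its 3' partner differed by -0.08 and -0.03. The 5' GAPDH control was higher by 0.68 in MyLa and 0.15 in HH, and its 3' partner by 0.04 and 0.03. Between the lines, 5' ACTB read 11.81 and 10.12 in MyLa (IL-32γ, control), against 13.58 and 12.69 in HH. At its 3' end all 4 arrays read 15.07 to 15.27. The part of these controls in the members' differences, with IL-32γ or between lines, was not tested.

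**Figure D3:**
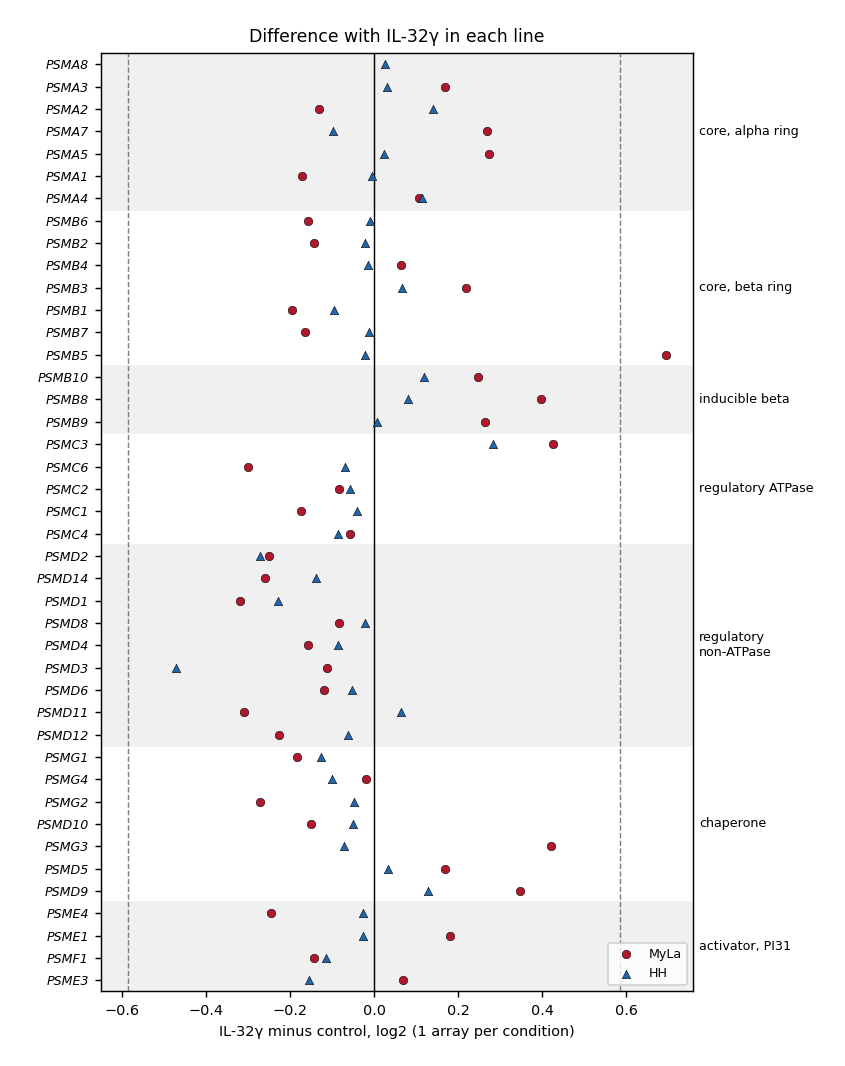
Each row is a proteasome gene; circles give the IL-32γ minus control difference in MyLa and triangles that in HH (log2, 1 array per condition), and dashed lines mark 1.5-fold. PSMB5 in MyLa (0.69) is the one point past a dashed line, and the non-ATPase cap subunits lie below 0 in MyLa.

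PSMB5 was the member past 1.5-fold, at 12.17 with IL-32γ and 11.47 without in MyLa, and at 11.56 and 11.58 in HH. The IL-32γ array of MyLa is high and the other 3 lie close together. The difference was 0.69 (1.62-fold) in MyLa and -0.02 in HH, and since the gene has 1 probe set no other reading of it is at hand. The 3 inducible subunits were above 0 in both lines: PSMB8 by 0.40 in MyLa and 0.08 in HH, PSMB9 by 0.26 and 0.01, and PSMB10 by 0.25 and 0.12. None reached 1.5-fold, and the unadjusted p across lines was over 0.05 in each (limma adjusted p = 0.613 for PSMB8, 0.686 for PSMB9 and 0.613 for PSMB10). In limma across lines PSMB5 gave 0.34 (SE 0.22, adjusted p = 0.618).

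The cap subunits ran the other way. All 9 measured non-ATPase subunits were below 0 in MyLa (median -0.23, from -0.32 to -0.08) and 8 of 9 in HH (median -0.09), where 59.1% and 65.9% of all genes were below 0. Of the ATPases 4 of 5 were below 0 in each line. PSMD1, a scaffold of the base, read 13.22 with IL-32γ and 13.54 without in MyLa, and 13.21 and 13.44 in HH (-0.27 across lines, SE 0.11, limma adjusted p = 0.558). PSMD2 gave -0.25 and -0.27 (limma adjusted p = 0.560), and PSMD3, with 11.14 and 11.25 in MyLa and 10.42 and 10.90 in HH, gave -0.11 and -0.47. The exception among the ATPases was PSMC3, with 11.74 and 11.32 in MyLa and 12.41 and 12.13 in HH, higher by 0.42 and 0.28 (0.35 across lines, SE 0.11, unadjusted p = 0.0464, limma adjusted p = 0.544). Second probe sets did not share the sign in MyLa for PSMD1 (0.23), PSMD11 (0.37) and PSMD12 (0.07), whereas the 3 measured ones of PSMD4, a ubiquitin receptor, lay between -0.16 and -0.13. In HH those of PSMD6 (0.17, dim) and PSMD12 (0.15) were above 0, and those of PSMD1 (-0.12) and PSMD4 below. The dimmer probe sets of PSMC2 gave 0.08 and -0.29 in MyLa, and 0.34 and 0.12 in HH. The counts below 0 thus rest on the choice of the brightest probe set.

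The remaining roles were mixed. Of the alpha subunits PSMA5 (0.27) and PSMA7 (0.27) were highest in MyLa and PSMA1 lowest (-0.17). In HH they ran from -0.10 for PSMA7 to 0.14 for PSMA2, but the other probe set of each went the opposite way there (0.05 and -0.22). Of the chaperones PSMG3, a partner in the assembly of the alpha ring, read 12.89 with IL-32γ and 12.47 without in MyLa (0.42), and 12.38 and 12.46 in HH (-0.07). PSMD9 followed it in MyLa (0.35, and 0.13 in HH), and PSMG2 was lowest there (-0.27). Of the activators PSME1 stood at 0.18 and PSME4 at -0.24 in MyLa, with -0.03 for both in HH.

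Among 20 genes with at least 2 probe sets at 5 or more on all arrays, all readings shared a sign in 13 for the line difference, in 9 for IL-32γ in MyLa and in 7 for IL-32γ in HH. The spread between probe sets of a gene had a median of 0.35 between lines, 0.32 for IL-32γ in MyLa and 0.22 in HH, beside IL-32γ differences of the 41 and 42 genes that ran from -0.32 to 0.69 in MyLa and from -0.47 to 0.28 in HH. At the level of probe sets, 1.5-fold was passed upwards by 4 of 73 in MyLa and downwards by 0 (beside 11.2% and 8.42% of 19876 probe sets), and 2 of 74 higher and 2 lower in HH (beside 4.68% and 3.97% of 19516). A few dim or secondary probe sets gave the extreme values. The PSME4 probe set 212220_at read 9.16 with IL-32γ and 8.38 without in MyLa (0.78), and 10.41 and 9.16 in HH, where the other 2 lay between -0.24 and -0.02. The PSMB1 probe set 214289_at gave -0.45 in MyLa and -1.27 in HH, where the brighter ones lay between -0.20 and 0.04.

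**Figure D4:**
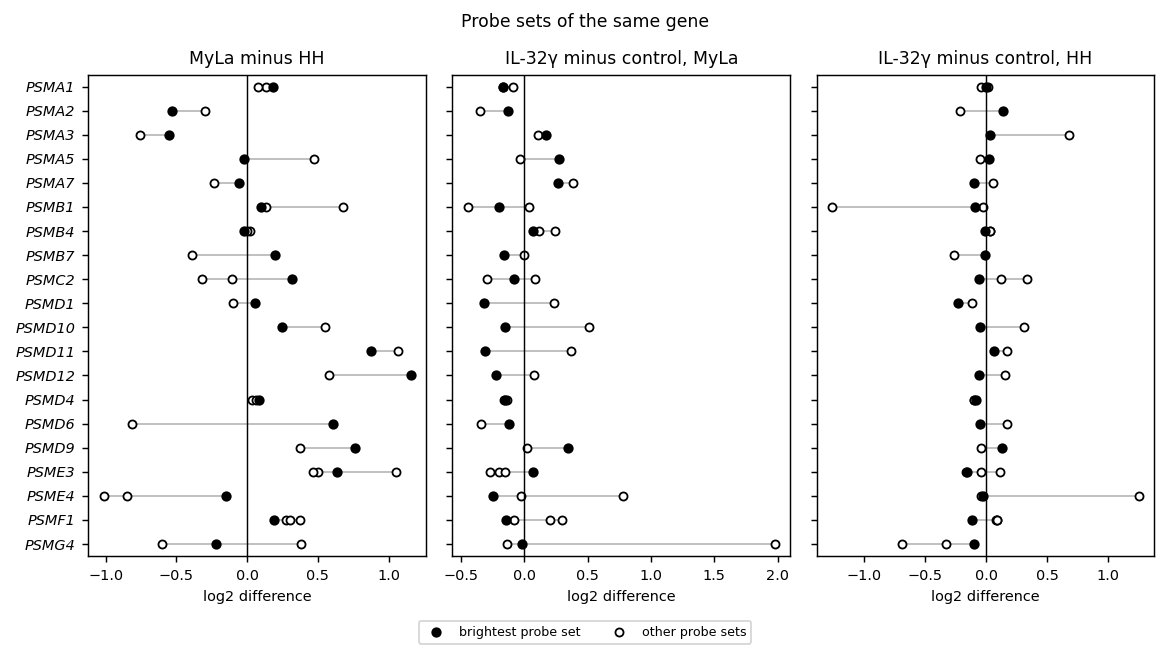
Points are the probe sets of the 20 genes with at least 2 readings at 5 or more on all arrays, filled for the brightest, with log2 differences between lines (left) and with IL-32γ in MyLa (middle) and HH (right). Readings of PSMD4 and PSMB4 lie close together, and those of PSME4 and PSMG4 spread over more than 1 unit in MyLa.

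Among genes that work beside the inducible proteasome some were called between the lines, as were 18.7% of all genes (higher in MyLa) and 16.8% (lower). TAP1, which carries peptides into the endoplasmic reticulum, was higher in MyLa, with 13.79 and 13.90 (IL-32γ, control), against 12.75 and 12.82 in HH (1.06, SE 0.10, limma adjusted p = 0.00320). Of 12 genes of peptide transport, trimming and class I loading, 2 were called higher, TAP1 and the trimming enzyme ERAP2 (3.11), and 1 lower, its relative ERAP1 (-2.56), with a median of 0.03. Read by a probe set without shared probes ERAP1 stood at -0.26. Of 9 genes of interferon gamma signalling 2 were called higher, SOCS1, an inhibitor of JAK kinases (3.31), and IRF1 (1.14), and 3 lower. NLRC5, the transactivator of class I and inducible proteasome genes, read 8.06 and 9.22 in MyLa, against 12.42 and 12.67 in HH (-3.90, SE 0.44, limma adjusted p = 0.00462). IRF1, the factor through which interferon gamma induces these genes, read 10.52 and 10.53 in MyLa, against 9.32 and 9.44 in HH (limma adjusted p = 0.00239). The other 2 lower were JAK2 (-1.44) and IRF2, below 5 in MyLa and at 11.55 and 11.35 in HH, at least 87.6-fold lower. As with PSMA8, IRF2 was tested through HH alone. The filter thus fixed the direction of its difference, and its adjusted p is no measure of stability. Without the HH IL-32γ or the HH control array the adjusted p passed 0.05 for TAP1 (0.0580 and 0.0541), ERAP1 (0.0570 and 0.0529), NLRC5 (0.108 and 0.113) and JAK2 (0.242 and 0.275). NLRC5 (0.0541) and JAK2 (0.189) also missed it with no floor and no filter, and JAK2 without the MyLa IL-32γ array (0.0657). SOCS1 stood at 1.71 with its probe sets averaged. In MyLa NLRC5 gave -1.15 with IL-32γ and JAK2 -0.96, both past 1.5-fold, where HH had -0.26 and -0.21.

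**Figure D5:**
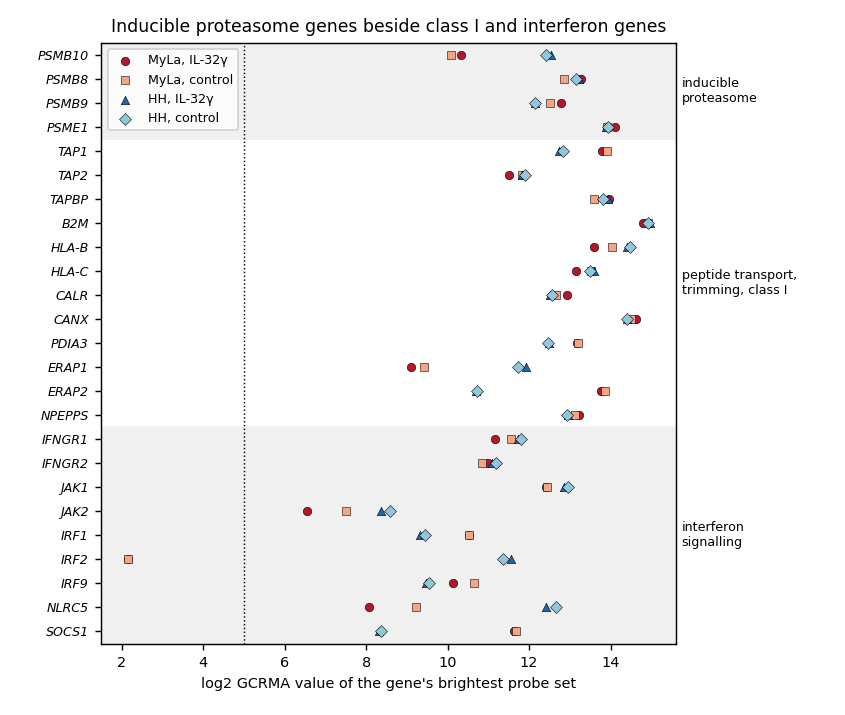
Rows are inducible proteasome genes with genes of class I presentation and of interferon signalling, and points are log2 GCRMA values on the 4 arrays; the dotted line marks the floor of 5. NLRC5 and PSMB10 lie lower in MyLa than in HH, TAP1, IRF1 and PSMB9 higher, and PSMB8 and PSME1 overlap.

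NFE2L1, the transcription factor that raises proteasome genes when the protease is blocked, was higher in MyLa, with 14.87 and 14.85 (IL-32γ, control), against 13.31 and 13.32 in HH (1.54, SE 0.09, limma adjusted p = 0.000869), and differed by 0.03 and -0.01 with IL-32γ. Its relative NFE2L2 stood at 0.31 (limma adjusted p = 0.0648). In a list of 8 genes of proteasome gene transcription and NFE2L1 processing STAT3 was called higher too (2.37). STAT3 stood at 2.35 without the MyLa IL-32γ array and 2.39 without the MyLa control array, and missed the threshold in both fits. Of the 8 genes 2 were thus called higher, beside 18.7% of all genes, and none lower, beside 16.8%. With IL-32γ, MAFG (0.86) and NFYA (0.66), 2 of the 8, were past 1.5-fold in MyLa, beside 7.77% of all genes higher there. None of the list passed it in HH, beside 1.14% of all genes higher and 4.46% lower. Of 13 proteins that bind or help to build the proteasome none was called, where 18.7% of all genes were called higher and 16.8% lower. POMP, the maturation factor of the core, stood at -0.09 (limma adjusted p = 0.472). AKIRIN2, which brings proteasomes into the nucleus, stood at 0.76 (limma adjusted p = 0.00689). With its probe sets averaged AKIRIN2 stood at 0.30 (limma adjusted p = 0.108). PAAF1 stood at -0.95 (limma adjusted p = 0.0429, and 0.192 with no floor and no filter). With 1 array left out PAAF1 ranged from -1.20 to -0.69. Of 11 genes of ubiquitin, its activation and shuttling none was called higher and UBA6, an activating enzyme, lower (-1.10, limma adjusted p = 0.00219). None of these genes passed 1.5-fold with IL-32γ in either line, where 7.77% of all genes were higher and 7.65% lower in MyLa. The ubiquitin list had a median of -0.25 in MyLa, beside -0.07 over all genes.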

How the data were processed

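Each line and condition gave 1 of 4 arrays of biotin-labelled RNA. The authors deposited log2 values per probe set, made with GCRMA per the submitters' processing notes; its version is not given in the sources used here, nor whether the arrays were normalised together. The log2 scale was read from the values (2.13 to 16.0). Symbols of the array annotation were updated through Entrez identifiers with RefSeq (GRCh38.p14), which matched all 81 member probe sets; promoter windows and chromosomes came from RefSeq of the same build.

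The probe set with the highest mean stood for its gene and values below 5 were set to 5. A gene entered the fits when 2 or more arrays reached 5 (11010 genes). They were made with limma 3.58.1 in R 4.3.3: MyLa against HH without a covariate (2 residual degrees of freedom, a 2-fold minimum), and IL-32γ against control with the line as a block (1 residual degree of freedom). Tests were two-sided, adjusted by Benjamini-Hochberg over all genes tested, with a threshold of 0.05. Within a line, genes that reached 5 on either array were counted at 1.5-fold. Fits were tested on simulated data.

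Named were the catalytic subunits with PSME1, called members, members past 1.5-fold and the extremes of each role, with some further members beside them. In other lists called genes were named, with NFE2L1, NFE2L2, POMP, IRF1, NLRC5 and TAP1; PAAF1 and AKIRIN2 were chosen after their values were seen. Members and lists were chosen with earlier results of these data known. Alternatives changed the floor (4, 6 or none), the scaling (quantile, or centring on medians), how probe sets stand for a gene (averaged, or without those of shared probes), the fold threshold, the covariates, an intensity trend and which array was left out. Python 3.11.15, pandas 2.3.3, numpy 2.4.6 and matplotlib 3.10.9 were used. Scanner files were not used here.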

Additional observations from a re-analysis of the deposited data

Results flagged for a closer look

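PSMB5 differed by 0.69 with IL-32γ in MyLa and by -0.023 in HH, opposite signs with 1 array per condition; the difference between the lines was not tested. The dim PSMG4 probe set 242055_at, which does not stand for its gene, read 7.74 with IL-32γ and 5.76 without in MyLa (1.98), and 6.02 and 6.71 in HH (-0.69), again opposite and not tested. The brightest PSMG4 probe set gave -0.02 and -0.10 on the same arrays.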

How the results depend on the processing

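The 2 arrays of a line differ in treatment, and 1 array stands for each condition, so small differences cannot be resolved and adjusted p-values between lines rest on 2 residual degrees of freedom. Members called higher in MyLa numbered 1; 0 with probe sets averaged per gene, 8 with no fold minimum, and 0 to 2 when 1 array was left out (2 without the MyLa IL-32γ array, 0 without either HH array). Members called lower numbered 2; 7 with no fold minimum and 1 to 2 when 1 array was left out (1 without the HH IL-32γ array). The other settings gave counts within 1.5 times of these. With that averaging 2 line differences changed sign, PSMA3 to 0.49 and PSMD6 to -0.10. Across lines 0 members were called with the line as a block and 0 with no replicate block, as under the other 8 settings run. In MyLa 1 member was higher at 1.5-fold, 5 at 0.32 on the log2 scale and 0 at 2-fold. In HH 0 were lower at 1.5-fold, 1 at 0.32 on the log2 scale (PSMD3) and 1 without probe sets of shared probes, PSMB1, then read by its dim probe set; that setting left 30 members. Leaving out an array of the IL-32γ fit leaves no residual degree of freedom and was not run. The members' median difference between lines lay between 0.02 and 0.16 under the settings run, highest with quantile normalisation.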

Other observations

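Some neighbours of PSMA8 also differ. In order along chromosome 18, IMPACT read 2.28 and 2.13 in MyLa (IL-32γ, control), against 9.76 and 9.55 in HH, and ZNF521 was below 5 in MyLa and read 7.66 and 8.24 in HH. SS18, next to PSMA8, was measured in both lines (-0.32, limma adjusted p = 0.312), and TAF4B, next on the other side and known from germ cells too, was higher in MyLa (0.81, limma adjusted p = 0.00681). KCTD1 stood at 0.29. HRH4, AQP4 and CHST9, the other neighbours read, were below 5 on all 4 arrays. IMPACT and ZNF521, like PSMA8, were tested through HH alone.

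Of 40 germ line and meiosis genes, a list chosen after the PSMA8 values were seen, 36 had a probe set. On both arrays of a line 7 read 5 or more in MyLa and 4 in HH, 2 of them in both. TEX14, which forms bridges between germ cells, read 3.58 and 3.48 in MyLa, against 9.62 and 9.72 in HH, as PSMA8 did. SYCP2, of the synaptonemal complex, went the other way, with 9.21 and 9.32 in MyLa, against 2.16 and 2.27 in HH, and DAZL read 7.10 and 7.13 in MyLa and was below 5 in HH.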
